A study of Mus musculus with 19 samples.

Results

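The 38 genes described here carry cells through the division cycle: cyclins and their kinases, the replication origin and helicase proteins, enzymes that supply nucleotides, mitotic kinases and checkpoint proteins, spindle and chromosome proteins, and a pair of transcription factors that drive such genes. They were chosen by name. Every non-control probe whose RefSeq accession belonged to one of them was taken, which gave 50 of the 55681 probes on the array and at least 1 probe for each gene. Of the 38 genes, 32 had a probe whose liver spot was well above background, as the scanner software marks it, on at least 4 of the 19 arrays. These 32 were tested among 13812 genes. The other 6 were Aurkb, Bub1, Ccne2, Cdc25c, Cdc6 and Kif11, none of which was above background in liver on any array.

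The samples were livers of 19 male mice, 10 weeks of age and all of the transgenic strain 40.6, taken on day 3 after they were given dibenz[a,h]anthracene (DB[a,h]A), a polycyclic aromatic hydrocarbon whose metabolites form DNA adducts. The control group (0 mg/kg) held 5 mice, and the groups given 6.25, 12.5 and 25 mg/kg held 5, 4 and 5. Strain 40.6 carries a bacterial reporter gene for mutation assays, so all groups, the control included, share that transgene. Each array set the RNA of 1 liver, in the red dye, against a common reference, in the green dye, pooled from 11 mouse cell lines. Every value below is the log2 ratio of liver over that reference, so -3 means a liver signal 3 doublings below the reference.

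Most hepatocytes of an adult liver rest outside the cell cycle and can re-enter it after injury or tissue loss. Cyclin E with Cdk2 and the E2F factors open S phase, cyclin A2 carries it on, and cyclin B1 with Cdk1 drives entry into mitosis. Genes that act in S phase are commonly switched on through E2F sites in their promoters. Genes that act in G2 and mitosis are commonly controlled through CCAAT boxes and a cell cycle homology region (CHR), which recruit NF-Y and the DREAM and MuvB complexes. DNA damage that stabilises p53 is known to repress many of the mitotic genes through the same promoter elements.

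The promoters of 3 of the genes are shown. They carry the letters searched for below to different degrees, and their probes gave the values on which the results turn. Each run is the 250 bases before the RefSeq start site, 5' to 3' on the minus strand of build GRCm38.p6. Capitals mark CCAAT (or ATTGG on the other strand) and the CHR letters TTTGAA. Ccnb1 lies at chr13:100786487-100786736, Mki67 at chr7:135716380-135716629 and Tk1 at chr11:117826015-117826264.
Ccnb1: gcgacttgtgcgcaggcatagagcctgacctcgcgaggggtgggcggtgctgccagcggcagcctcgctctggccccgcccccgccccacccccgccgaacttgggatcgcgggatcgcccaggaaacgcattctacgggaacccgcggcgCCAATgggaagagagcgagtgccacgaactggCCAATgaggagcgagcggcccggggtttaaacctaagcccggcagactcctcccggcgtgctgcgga
Mki67: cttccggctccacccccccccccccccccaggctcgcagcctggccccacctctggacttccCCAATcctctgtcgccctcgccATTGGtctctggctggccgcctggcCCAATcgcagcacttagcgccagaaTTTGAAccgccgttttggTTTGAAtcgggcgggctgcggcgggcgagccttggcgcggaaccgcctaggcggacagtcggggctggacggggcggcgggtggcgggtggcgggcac
Tk1: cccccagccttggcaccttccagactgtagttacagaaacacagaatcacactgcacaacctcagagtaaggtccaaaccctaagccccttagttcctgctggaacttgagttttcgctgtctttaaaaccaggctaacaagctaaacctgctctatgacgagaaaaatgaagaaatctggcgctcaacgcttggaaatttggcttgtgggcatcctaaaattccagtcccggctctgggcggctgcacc

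In the Ccnb1 run, CCAAT began 99 and 67 bases before the start. The CHR letters searched did not stand in that run, and other forms of the CHR were not searched for. Mki67 held 2 copies of CCAAT, 1 of ATTGG and 2 of TTTGAA, the last beginning 116 and 98 bases before the start. None of the searched letters stood in the Tk1 run, which says only that these letters are not in this window. Aurka held CCAAT beginning 51 and 19 bases before its start, and Mcm3 held it at 72 and 32 bases with ATTGG at 117. The search covered both strands for CCAAT, for the CHR letters TTTGAA and TTCGAA, and for the E2F letters TTTCCCGC, TTTGGCGC, TTTCGCGC and TTTGCCGC. The RefSeq promoter table held 31 promoters of 30 of the 38 genes. Of these 31, 77.4% held CCAAT, 32.3% the CHR letters and 19.4% the E2F letters, against 33.8%, 17.1% and 1.86% of all 32851 promoters in the table over the same 250 bases. A match describes letters and does not show a bound site.

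The arrays carried liver RNA, as labelled, and the division genes stood far below the cell line reference. All 8 hepatocyte markers, among them Alb and Hnf4a, were above background on every array, and their mean ratio lay between 6.58 and 8.43 on the 19 arrays. Over all arrays the median gene of the 32 stood at -3.35, against 0.01 for all 13812 genes tested. Every one of the 32 except Cdk1 was below 0 on all 19 arrays. A ratio compares liver with reference at 1 probe, so it gives no order of abundance between genes. In bulk liver, fewer cycling cells and less RNA per cycling cell cannot be told apart.

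In control livers the reference exceeded liver 38.3-fold for Mki67, the proliferation antigen Ki-67, 34.4-fold for Rrm2, the small subunit of ribonucleotide reductase, and 31.8-fold for Birc5 (survivin), a subunit of the chromosomal passenger complex. It exceeded liver 35.5-fold for Cenpe, a kinetochore motor, 24.6-fold for Ccna2, which encodes cyclin A2, and 20.1-fold for Mcm6 of the replicative helicase. Cenpe was above background in 4 of the 5 control livers, and the other 5 of these genes in all 5. The gap was smaller for Tyms (thymidylate synthase, 1.59-fold), Cdk2 (1.92-fold) and Tk1 (thymidine kinase, 1.95-fold). Cdc45, a helicase cofactor, was above background in only 1 control liver, so no fold is given. Cdk1, the kinase of mitosis, gave probes that disagreed: its kept probe had a mean ratio of 0.18 and was above background on 13 arrays, while another at -3.29 was above liver background on none.

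**Figure D1:**
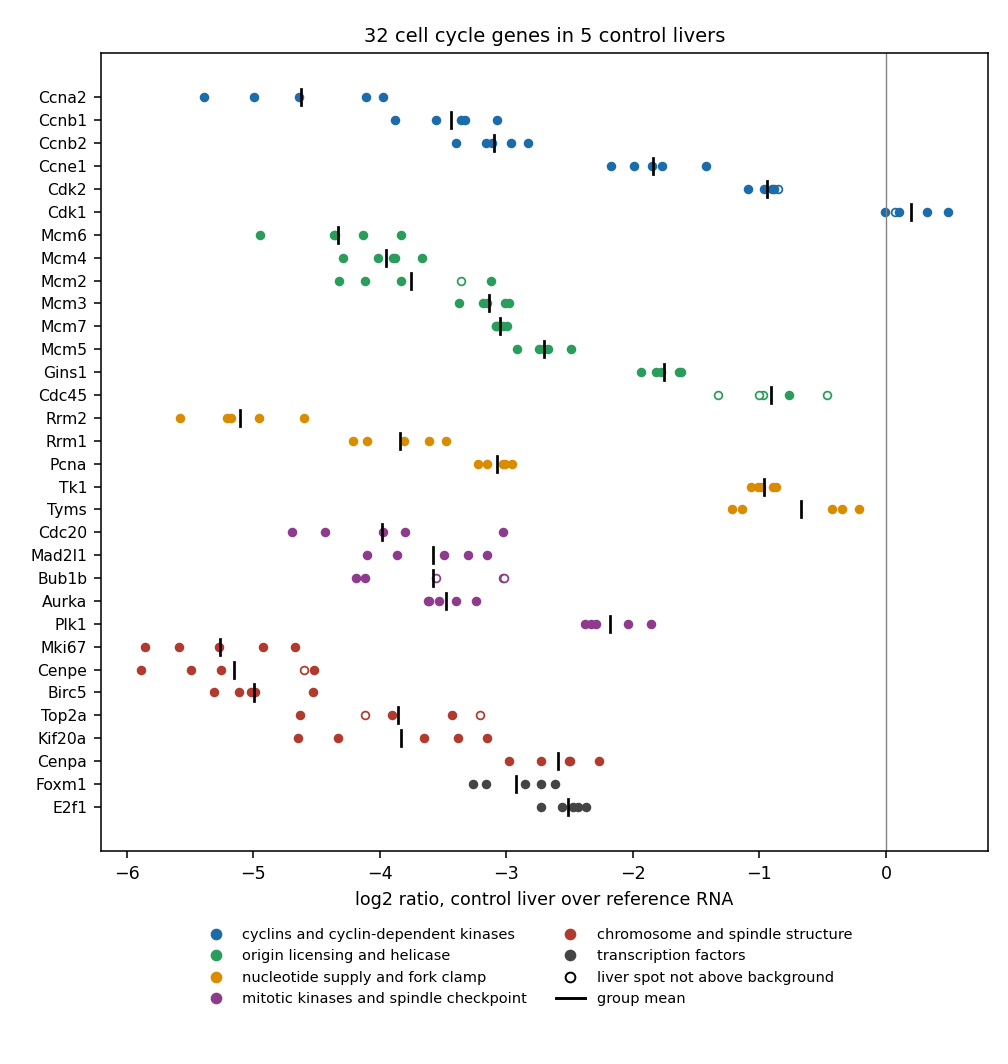
Log2 ratio of liver over reference RNA (horizontal axis) for the 32 tested genes in each of the 5 control livers, grouped by role. Filled points were above liver background, open points were not, and the black bar is the mean. All genes except Cdk1 lie left of 0, and Mki67 reaches the lowest mean of -5.26.

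The 6 genes without liver signal split by what the reference showed. Bub1 (a checkpoint kinase), Kif11 (the spindle motor Eg5), Cdc25c (the phosphatase that activates Cdk1) and Cdc6 (an origin licensing factor) were above background in the reference on all 19 arrays. With the liver set to the lowest signal that counts as detected, or to its own value where higher, the reference was at least 15.0-fold higher for Bub1, at least 6.96-fold for Kif11, at least 3.83-fold for Cdc25c and at least 2.65-fold for Cdc6. These bounds use each channel after loess and Aquantile normalisation and are open to dye bias, since the dyes were never swapped. Aurkb, the kinase of the chromosomal passenger complex, was above background in the reference on 3 arrays and Ccne2, which encodes cyclin E2, on none, so no fold is given. Of the tested genes, 23 were above liver background on all 19 arrays. The spindle checkpoint kinase gene Bub1b was on 6 and Cdc45 on 4, and both were below background on every array of the 12.5 mg/kg group.

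None of the 32 genes changed at any dose by limma at an adjusted p under 0.05. At 25 mg/kg 0 of 32 passed, with 0.0507% of all genes called, and 5 had an unadjusted p under 0.05 (8.69% of all genes did). These 5 were Ccnb1, Aurka, Cenpa and Plk1, with estimates below 0, and Tk1, with an estimate above 0. At 12.5 mg/kg 0 passed (0% of genes called), and 4 had an unadjusted p under 0.05 against 4.97% of genes, with Birc5, Foxm1, Mcm3 and Mki67 all above 0. At 6.25 mg/kg 0 passed (0% of genes called), and 2 had an unadjusted p under 0.05 against 5.74% of genes, namely Ccnb1 below and Tk1 above 0. The F test over doses called 0 (0.00724% of genes), with 6 at an unadjusted p under 0.05 (6.03% of genes), and the linear trend on dose called 0 (0.0217% of genes), with 3 (7.15% of genes).

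The arrays sat on 3 slides, each of which held all 4 groups. With slide as a fixed block in limma, 1 gene of the 32 fell at 25 mg/kg, against 0.977% of all genes called, and 1 passed the F test, against 0.0869%. Both calls were Ccnb1. The block left 0 calls at 12.5 and 6.25 mg/kg (0.00724% and 0% of genes), with 9 and 4 genes at an unadjusted p under 0.05, against 10.7% and 12% of genes. It left 0 by the trend (0.29% of genes), with 6 at an unadjusted p under 0.05 against 12.5%. At 25 mg/kg 7 genes reached an unadjusted p under 0.05 with the block and by the F test 16, against 16.3% and 16.2% of genes.

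Ccnb1 encodes cyclin B1, the partner of Cdk1 at entry into mitosis. Its ratio in the 5 control livers was -3.36, -3.07, -3.32, -3.55 and -3.88, and in the 5 livers at 6.25 mg/kg -4.18, -4.00, -3.74, -3.74 and -4.30. At 12.5 mg/kg it was -3.35, -3.40, -3.19 and -3.67, and at 25 mg/kg -4.20, -3.88, -4.05, -3.93 and -3.90. Livers at 6.25 and 25 mg/kg were low, those at 12.5 mg/kg stood with the controls, and 1 control at -3.88 reached into both low groups. The group means were -3.44 ± 0.30 (SD, n = 5) in controls and -3.99 ± 0.13 (SD, n = 5) at 25 mg/kg. The difference was -0.55 ± 0.14 (SE), 1.47-fold lower, with an adjusted p of 0.204 by limma without the block.

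With slide as a block the Ccnb1 difference at 25 mg/kg was -0.59 ± 0.11 (SE), 1.51-fold lower, with an adjusted p of 0.0235 by limma, and the F test gave 0.0354. Within the slides it was -0.18, -0.79 and -0.68. At 6.25 mg/kg the difference was just as large, -0.55 ± 0.14 and -0.59 ± 0.11 with the block, but the adjusted p was 0.786 and 0.0704 by limma. At 12.5 mg/kg it was 0.04 ± 0.15. The call at 25 mg/kg was lost when control replicate 1, 2 or 4 or 25 mg/kg replicate 1, 3 or 4 was left out of the blocked fit, with an adjusted p between 0.00869 and 0.0864 over the 19 such fits. The F test call was lost in 11 of them: without control replicate 1, 2, 3 or 4, without 6.25 mg/kg replicate 3, without 12.5 mg/kg replicate 1, 3 or 4, and without 25 mg/kg replicate 1, 2 or 3. A second kept Ccnb1 probe, above liver background on 4 arrays, differed from control by -0.01 at 25 mg/kg and 0.38 at 12.5 mg/kg, so the probes disagree.

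Of the other cyclins and kinases, Ccnb2 (cyclin B2) stood at -0.23 ± 0.12 at 6.25, 0.15 ± 0.12 at 12.5 and -0.23 ± 0.12 at 25 mg/kg. Ccna2 stood at 0.47 ± 0.26 at 12.5 mg/kg and -0.11 ± 0.24 at 25 mg/kg. Ccne1 (cyclin E1) stood at 0.33 ± 0.17 and 0.02 ± 0.16. Cdk2 and Cdk1, the latter above background in 1 of 4 livers at 12.5 mg/kg, stood between -0.08 and 0.05 at the 3 doses. None of these passed the test.

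Aurka encodes Aurora A, a kinase of the spindle poles. It read -3.62, -3.24, -3.53, -3.40 and -3.61 in controls and -3.75, -3.64, -3.47, -3.49 and -3.49 at 6.25 mg/kg. It read -3.57, -3.17, -3.22 and -3.34 at 12.5 mg/kg and -3.88, -3.73, -3.72, -3.62 and -3.79 at 25 mg/kg. Every liver at 25 mg/kg was below every control, by a margin under 0.01 at the closest pair (-3.62 on both sides). The difference at 25 mg/kg was -0.27 ± 0.10 (SE), with an adjusted p of 0.484 by limma and 0.140 with the block.

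Of the 5 tested genes of the mitotic kinase and checkpoint group, Aurka included, 4 had an estimate below 0 at 25 mg/kg and 4 above 0 at 12.5 mg/kg, none past the test. Plk1, the polo kinase of mitosis, stood at -0.33 ± 0.13 at 25 mg/kg and -0.03 ± 0.14 at 12.5 mg/kg. Cdc20, the activator of the anaphase-promoting complex, stood at -0.22 ± 0.25 and 0.22 ± 0.26. Mad2l1 of the spindle checkpoint stood at 0.02 ± 0.16 and 0.29 ± 0.17. Bub1b was below background on every array at 12.5 mg/kg and is given no fold, although the sign of its estimate is counted above at both doses.

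Tk1, the salvage enzyme that phosphorylates thymidine, was the member with the highest estimate at 25 mg/kg. Its ratio was -1.07, -0.87, -1.01, -0.99 and -0.89 in controls and -0.48, -0.50, -0.88, -1.05 and -0.03 at 6.25 mg/kg. It was -0.58, -0.70, -0.69 and -0.78 at 12.5 mg/kg and -0.18, -0.52, -0.54, -0.29 and -0.71 at 25 mg/kg. All livers at 12.5 and 25 mg/kg were above all controls, while the 6.25 mg/kg group spread from within the control range to above it. The difference from control was 0.38 ± 0.15 at 6.25, 0.28 ± 0.16 at 12.5 and 0.52 ± 0.15 (SE) at 25 mg/kg, 1.43-fold at the top dose. It did not pass: the adjusted p at 25 mg/kg was 0.268 by limma and 0.0999 with the block, and that of the trend was 0.552 and 0.248.

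The other nucleotide and fork genes had smaller estimates. Pcna, the sliding clamp of replication forks, stood at 0.00, 0.07 ± 0.09 and 0.02 ± 0.08 at 6.25, 12.5 and 25 mg/kg, with the smallest standard errors of the 32 genes. Rrm1 and Rrm2, the subunits of ribonucleotide reductase, stood at 0.29 ± 0.16 and 0.32 ± 0.24 at 12.5 mg/kg and at 0.15 ± 0.15 and 0.17 ± 0.23 at 25 mg/kg. Tyms, above background in 1 of 4 livers at 12.5 mg/kg and 4 of 5 at 25 mg/kg, stood at 0.01 ± 0.21 and -0.05 ± 0.20.

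Mcm3 is a subunit of the MCM helicase that is loaded on replication origins. It read -3.37, -2.98, -3.15, -3.01 and -3.18 in controls and -3.33, -3.26, -3.28, -3.13 and -2.92 at 6.25 mg/kg. It read -2.91, -2.89, -2.86 and -2.94 at 12.5 mg/kg and -3.51, -3.23, -3.19, -3.03 and -3.14 at 25 mg/kg. The 4 livers at 12.5 mg/kg were tightly placed above all controls and above all livers at 25 mg/kg. The difference at 12.5 mg/kg was 0.24 ± 0.11 (SE), with an adjusted p of 0.999 by limma and 0.385 with the block.

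Of the 8 tested licensing and helicase genes, 7 had an estimate above 0 at 12.5 mg/kg and 6 had one below 0 at 25 mg/kg, none past the test. At 12.5 mg/kg, Mcm2 stood at 0.41 ± 0.26, Mcm6 at 0.30 ± 0.29, Mcm4 at 0.21 ± 0.14 and Mcm5 at 0.12 ± 0.11. Mcm7 was the exception, at -0.07 ± 0.13. Gins1, of the GINS complex that joins the helicase, stood at 0.07 ± 0.13. Mcm2 was above background in 2 of the 4 livers of that group. Cdc45 was below background on every array of that group and is given no fold, although the sign of its estimate is counted above at both doses.

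Mki67 marks cycling cells in tissue sections. Its ratio was -5.27, -4.67, -4.92, -5.59 and -5.85 in controls and -5.50, -5.25, -5.26, -5.01 and -5.41 at 6.25 mg/kg. It was -5.08, -4.65, -4.46 and -4.91 at 12.5 mg/kg and -5.30, -5.32, -5.31, -4.98 and -5.39 at 25 mg/kg. Controls spread over more than a doubling and covered most of the other groups. The difference at 12.5 mg/kg was 0.49 ± 0.19 (SE) with an adjusted p of 0.999 by limma, and at 25 mg/kg it was 0.00 ± 0.18. A second Mki67 probe gave 0.39 and -0.05.

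Among the other spindle and chromosome genes at 12.5 mg/kg, Cenpe stood at 0.41 ± 0.28, Birc5 at 0.38 ± 0.14, Top2a, the topoisomerase of dividing cells, at 0.34 ± 0.28, and Kif20a, a motor of cytokinesis, at 0.18 ± 0.29. Cenpa, the histone of centromeres, was at -0.07 ± 0.16 there and at -0.39 ± 0.15 at 25 mg/kg, the lowest estimate of this group. Of the 4 livers at 12.5 mg/kg, Top2a was above background in 1 and Cenpe and Kif20a in 2 each, so their estimates lie near background. A second Birc5 probe gave 0.39 at 12.5 mg/kg. None passed the test.

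Foxm1, a transcription factor of G2 and mitotic genes, read -3.16, -2.62, -2.73, -2.85 and -3.26 in controls and -3.12, -2.96, -2.77, -2.71 and -3.30 at 6.25 mg/kg. It read -2.62, -2.55, -2.54 and -2.47 at 12.5 mg/kg and -2.87, -3.08, -2.87, -2.89 and -2.97 at 25 mg/kg. The 12.5 mg/kg livers were above all others, the closest control differing by under 0.01. The difference from control at 12.5 mg/kg was 0.38 ± 0.14 (SE), with an adjusted p of 0.999 by limma and 0.298 with the block. E2f1, the activator of S phase genes, stood at 0.00 ± 0.15 at 12.5 mg/kg and -0.24 ± 0.14 at 25 mg/kg.

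**Figure D2:**
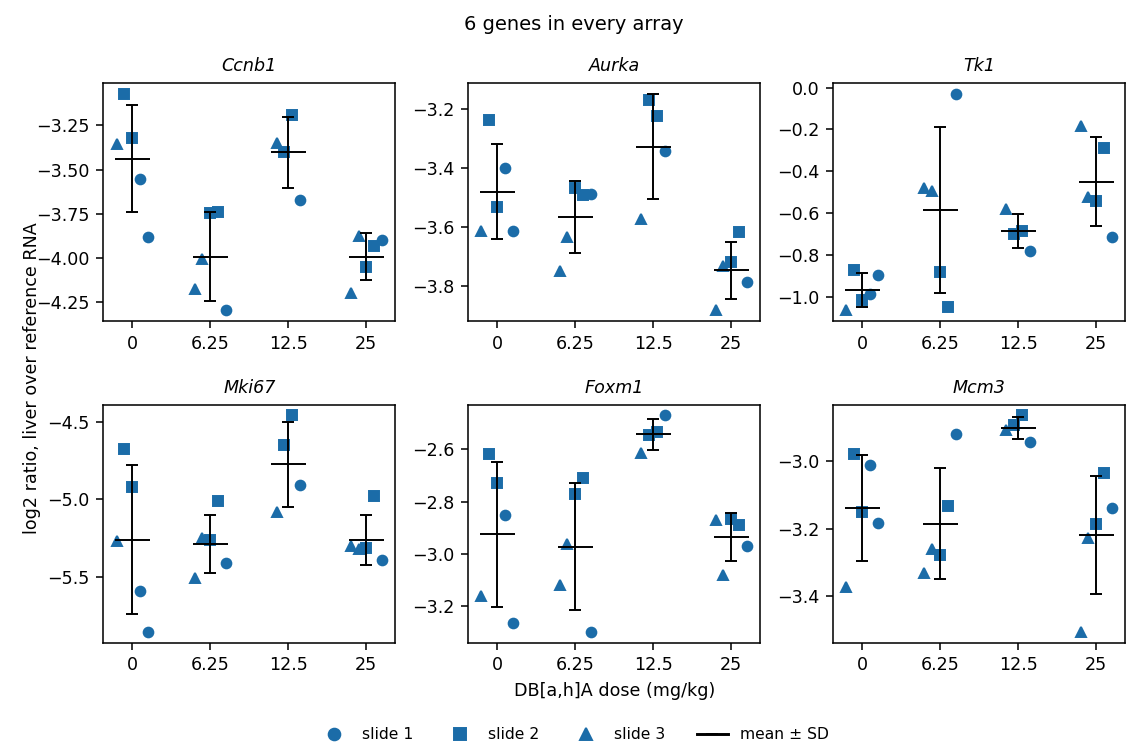
Log2 ratio of liver over reference (vertical axis, scaled per gene) by dose for 6 genes, with 1 point per liver, its shape giving the slide, and mean ± SD. Ccnb1 is lower at 6.25 and 25 mg/kg than at 0 and 12.5 mg/kg, Tk1 is higher at 12.5 and 25 mg/kg than in all controls, and Mki67, Foxm1 and Mcm3 have their highest mean at 12.5 mg/kg.

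Groups did not overlap for 2 of the 32 genes at 25 mg/kg (Aurka and Tk1), against 2.13% of all genes. They did not overlap for 3 at 12.5 mg/kg (Tk1, Mcm3 and Foxm1), against 1.74%, and for 0 at 6.25 mg/kg, against 1.09%. Between 25 and 12.5 mg/kg, 7 did not overlap, against 1.75% of all genes. These were Aurka, Birc5, Ccnb1, Ccnb2, Foxm1, Mcm3 and Mcm5, each lower at 25 mg/kg. In that comparison limma called 0 of 32 with or without the block (0% of genes in both), while 10 and 19 had an unadjusted p under 0.05, against 4.53% and 12.8% of genes. The smallest adjusted p among the 32 was 0.999, and 0.0955 with the block. Against 6.25 mg/kg, limma called 0 of 32 at 12.5 and at 25 mg/kg with or without the block (0% of genes). In the first of these 9 genes, and 18 with the block, had an unadjusted p under 0.05, against 4.99% and 12.7% of genes, and 30 of 32 estimates were above 0, against 46.1%. Ccnb1, Ccnb2, Cdc20 and Foxm1, 4 genes, did not overlap there, against 1.56%. At 25 mg/kg 0 genes, and 1 with the block, had an unadjusted p under 0.05, against 2.61% and 6.86%, with 15 of 32 above 0 against 47.5% and 0 without overlap against 0.362%.

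As a list, the genes had estimates mostly above 0 at 12.5 mg/kg and mostly below 0 at the other doses. The median change against control was 0.22 at 12.5 mg/kg, with 28 of 32 estimates above 0, where all genes had a median of -0.02 and 46% above 0. It was -0.08 at 25 mg/kg (11 of 32 above 0, against 48.3% of all genes) and -0.05 at 6.25 mg/kg (7 of 32, against 50.8%). From 12.5 to 25 mg/kg the median was -0.32, with 2 of 32 above 0, against 54.3% of all genes. The medians are on the log2 scale and the comparisons share their controls or their 12.5 mg/kg livers. Bub1b and Cdc45, below background on every array at 12.5 mg/kg, are counted among the 28. Within slides 1, 2 and 3 the median at 12.5 mg/kg was 0.20, 0.10 and 0.15, and with the block 0.17. Taking the liver channel alone, without the reference, it was 0.07. Signs of the medians differed between slides for the other doses. In the same slide order they were -0.07, -0.24 and 0.009 for 25 mg/kg against control. For 6.25 mg/kg they were 0.02, -0.22 and -0.08, so slide 2 lay lowest for both doses. The blocked fit gave -0.09 for each.

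**Figure D3:**
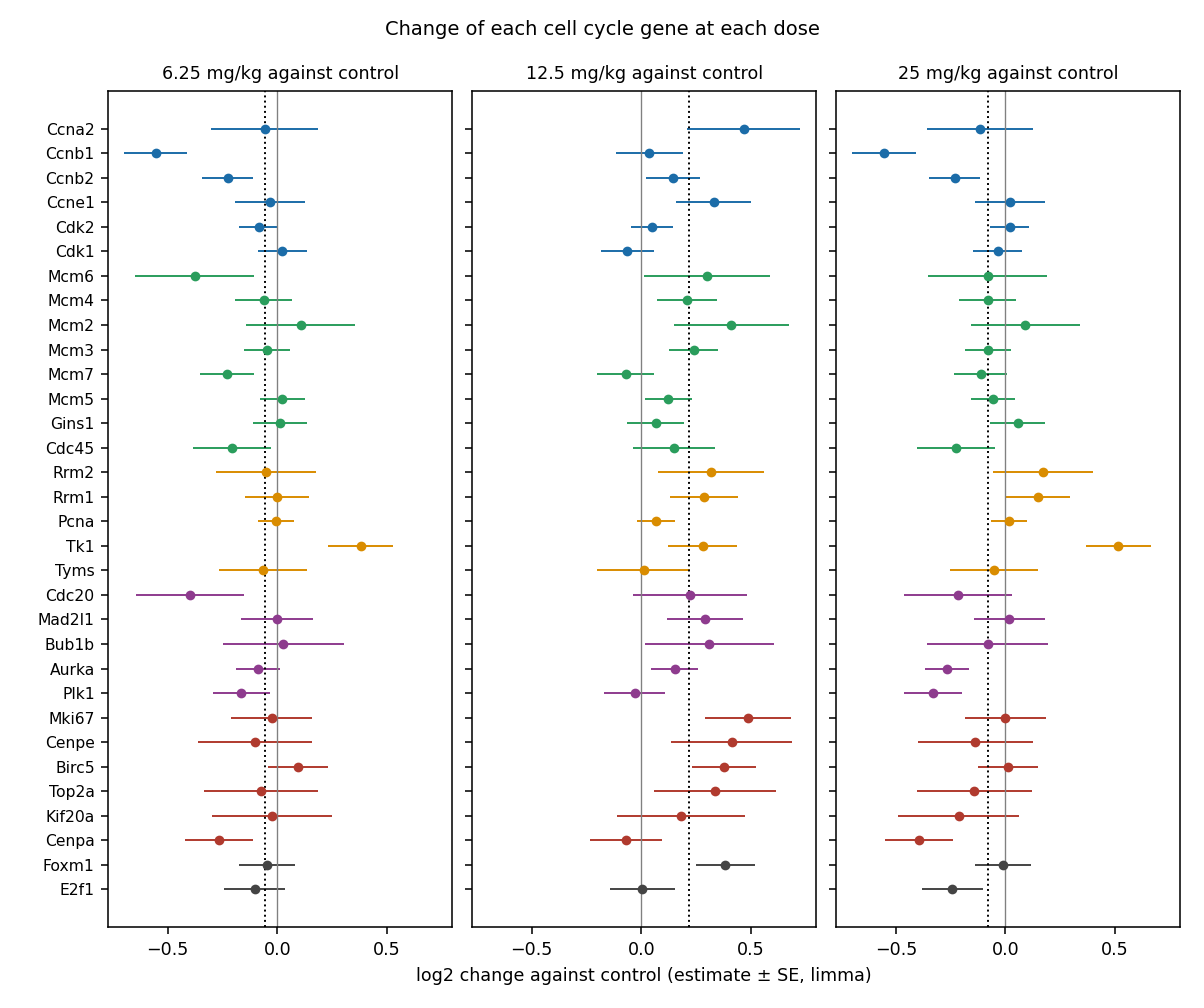
Log2 change against control (horizontal axis, limma estimate ± SE) for each of the 32 genes at 6.25, 12.5 and 25 mg/kg. The dotted line is the median of the genes, colours mark the role groups, and 28 of 32 points lie right of 0 in the middle panel against 11 of 32 in the right one.

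Genes outside this list with equally low ratios also had estimates mostly above 0 at 12.5 mg/kg. Of 339 genes with a mean ratio under -3, 93.2% had an estimate above 0 at 12.5 mg/kg, with a median of 0.20. After removal of the division genes and the further cell cycle lists described below, 288 remained, of which 92.4% were above 0 with a median of 0.19. The 20 division genes under -3 had a median of 0.29, with 95% above 0, and those at -1 or higher, 5 in number, had a median of 0.05. From 12.5 to 25 mg/kg, 4.51% of the 288 genes were above 0 with a median of -0.31, and the 20 had a median of -0.38. The 2 sets differed more elsewhere. At 6.25 mg/kg 48.6% of the 288 genes were above 0, with a median of -0.006, against 15% of the 20, with a median of -0.05. Within slides 1, 2 and 3 the median of the 288 at 12.5 mg/kg was 0.19, 0.19 and 0.005. That of the 20 was 0.33, 0.14 and 0.16. Across the 32 genes the mean ratio and the change at 12.5 mg/kg correlated at r = -0.60 (rho = -0.63), and across all 13812 genes at r = -0.36 (rho = -0.42). At 25 mg/kg these were 0.16 and -0.02 (Pearson). The points share the same arrays and the same reference, and genes are not independent replicates. The split at -3 was chosen after the values were seen.

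**Figure D4:**
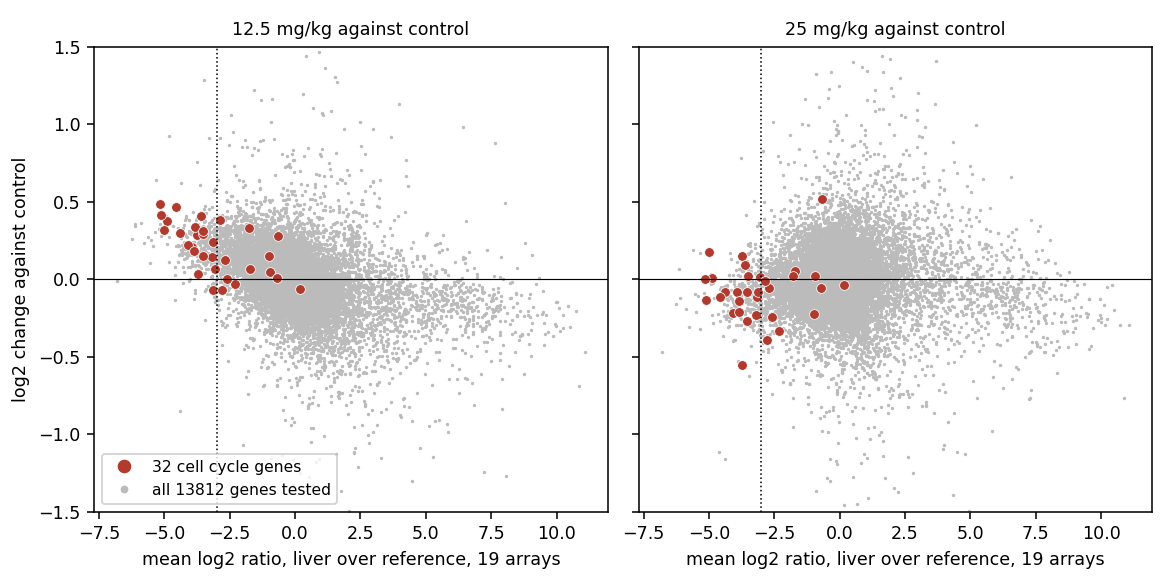
Log2 change against control at 12.5 mg/kg (left) and 25 mg/kg (right) against the mean log2 ratio of liver over reference on 19 arrays, for all tested genes (grey) and the 32 division genes (red). The dotted line marks -3; at 12.5 mg/kg 93.2% of all genes left of it lie above 0, and 17 and 25 genes beyond ±1.5 are not drawn.

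The 12.5 mg/kg group also had the lowest mean share of liver spots above background, although its range (35.5% to 47.1%) overlapped that of controls (36.5% to 56.7%). Liver spots well above background made up 39.8% ± 5.0 (SD, n = 4) of spots there, against 47.0% ± 7.9 in controls, 48.3% ± 4.8 at 6.25 mg/kg and 47.8% ± 6.4 at 25 mg/kg (n = 5 each). Of the 32 genes, 24 to 30 were above background per array at 12.5 mg/kg and 25 to 32 on the other arrays. Over the 19 arrays, the mean ratio of the 23 genes detected on every array fell as that share rose, with r = -0.77 (p = 0.00012) and rho = -0.76 (p = 0.0002) by a two-sided permutation test of this 1 relation. Without the 2 arrays farthest from the median share r was -0.68, and on deviations from the group means -0.68 (permutation p = 0.00108). The tests over all 19 arrays shuffled them across slides, so differences between slides can enter their p-values. Both the share and the ratio use the liver channel of the same array, so they are not independent measurements. Within slide 2 r was -0.62 (exact permutation p = 0.0953, n = 8) and rho -0.76 (exact permutation p = 0.0368). Within slide 3 r was -0.27 (exact permutation p = 0.642, n = 6) and rho -0.14 (exact permutation p = 0.803), so no relation was shown there. Slide 1 held 5 arrays, for which no correlation is given: their shares were 52.4%, 56.7%, 54.8%, 38.3% and 56.3%, with mean ratios of -3.39, -3.55, -3.39, -3.20 and -3.53 in the same order. The array of lowest share on that slide had the highest ratio. The 339 genes under -3 had a median ratio of -3.09 on the array of lowest share of all 19 (35.5%). Their median was -3.88 on the array of highest share (56.7%), and no correlation was computed for them. With the share of liver spots above background as a covariate in limma, the median of the 32 genes at 12.5 mg/kg was 0.05, with 22 above 0. That of the 339 genes under -3 was -0.01. No gene of the 32 passed in that fit.

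**Figure D5:**
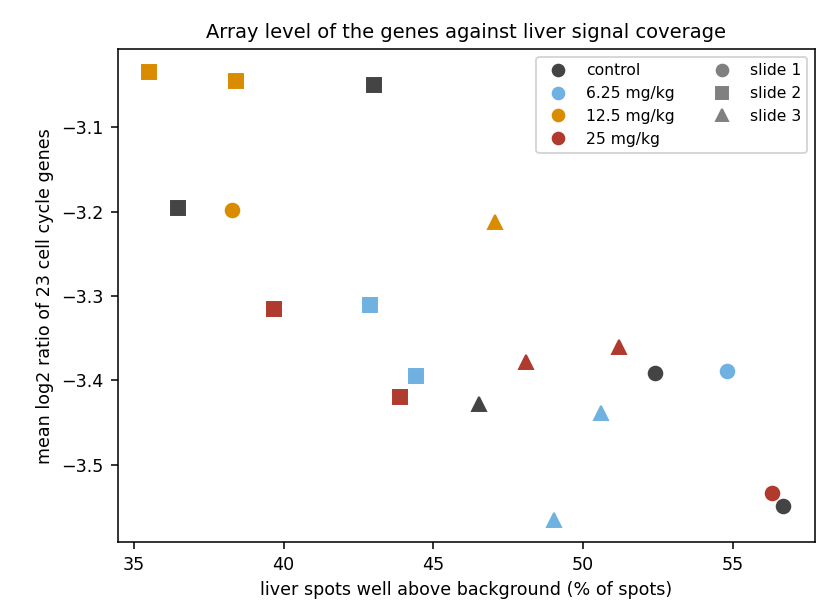
Mean log2 ratio of the 23 division genes detected on all arrays (vertical axis) against the percent of liver spots well above background (horizontal axis), 1 point per array, colour for dose and shape for slide. Arrays at 12.5 mg/kg lie between 35.5% and 47.1% and have ratios from -3.21 to -3.03.

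Markers of other cells were set beside these values. Neutrophil markers had an array mean of -0.09 to 0.23 in controls and 0.07 to 0.38 at 12.5 mg/kg, with 2 of 5 above background on all arrays of both groups and Mpo, a defining marker, on none. T cell markers ranged from -1.64 to -1.02 in controls and -1.30 to -0.99 at 12.5 mg/kg, and macrophage markers from 2.80 to 4.28 and 2.86 to 3.68. Erythroid markers ranged from 2.30 to 3.07 in controls and 2.36 to 3.15 at 12.5 mg/kg, endothelial markers from 2.09 to 2.69 and 2.00 to 2.32, and stellate cell markers from -1.497 to -0.944 and -1.501 to -0.829. Cholangiocyte markers ranged from -2.89 to -1.99 in controls and -2.71 to -1.90 at 12.5 mg/kg, where Epcam and Krt7 were above background on no array. At 12.5 and 25 mg/kg the median changes were 0.13 and -0.12 for the 2 tested cholangiocyte genes. They were 0.14 and -0.09 for T cell and 0.07 and -0.20 for macrophage genes. Of the 4 T cell genes, 1 went the other way at each dose. The macrophage genes split at 12.5 mg/kg, with Adgre1 (0.28) and Csf1r (0.23) above 0 and Clec4f (-0.13) and Cd5l (-0.09) below. The division genes' medians were likewise above 0 at 12.5 and below 0 at 25 mg/kg, as were those of the 288 other genes under -3 (0.19 and -0.10). Neutrophil (0.42 and 0.20) and erythroid (0.10 and 0.17) medians were above 0 at both doses. Endothelial medians (-0.10 and -0.08) were below 0 at both. Stellate cell medians were -0.07 and -0.02, with 2 genes above 0 and 2 below at each dose. With the block the stellate median at 25 mg/kg was 0.05. Ranges overlapped in each case, no marker of these lists passed limma at 12.5 or 25 mg/kg, and their part in the result was not tested.

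Further genes of the pathway gave 2 calls, both of checkpoint genes and both only with the block. In the list of 33 G1 and checkpoint genes, 30 were tested, and 0 passed limma while 2 rose at 25 mg/kg with slide as a block, against 0.0507% and 0.977% of all genes called. Wee1, the kinase that holds Cdk1 inactive, differed from control by 1.85 ± 0.37 (SE) with an adjusted p of 0.0285 by blocked limma, and by 1.91 ± 0.36 with 0.055 without the block. It was above background in 2 of 5 control livers and in all 5 at 25 mg/kg, and its control mean was -2.33 ± 0.47 (SD, n = 5) against -0.41 ± 0.60. Ccng1 (cyclin G1), a p53 target, differed by 0.94 ± 0.16 (SE) with an adjusted p of 0.0151 by blocked limma, and by 1.16 ± 0.30 with 0.204 without the block. Its mean was -2.04 ± 0.39 (SD, n = 5) in controls and -0.88 ± 0.65 (SD, n = 5) at 25 mg/kg. Groups did not overlap for either gene at 25 mg/kg, against 2.13% of all genes. At 12.5 mg/kg the smallest p-values of the list were those of Tipin, a replication fork protector, at 0.35 ± 0.10 and the damage-induced Gadd45a at 0.90 ± 0.27, neither past the test.

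The other lists gave 0 calls in any dose comparison, with or without the block. Of 47 further replication genes, 43 were tested, with a median of -0.03 at 25 and 0.09 at 12.5 mg/kg and 6 and 5 at an unadjusted p under 0.05 by limma, against 8.69% and 4.97% of all genes. Those of smallest p were Gins2, of the GINS complex, at -0.36 ± 0.14 and Rfc5, of the clamp loader, at -0.29 ± 0.12 at 25 mg/kg, and the licensing factor Cdt1 at 0.32 ± 0.13 and Mcm10 at 0.60 ± 0.25 at 12.5 mg/kg. Of 54 further mitosis genes, 37 were tested, with 31 above 0 at 12.5 mg/kg (median 0.22) and 9 above 0 at 25 mg/kg (median -0.07), against 46% and 48.3% of all genes. Only 1 had an unadjusted p under 0.05 at each of these doses, below the shares of all genes. Cks1b, a subunit of Cdk complexes, stood at -0.47 ± 0.21 and Stmn1, a microtubule destabiliser, at -0.19 ± 0.10 at 25 mg/kg. The cytokinesis scaffold gene Anln stood at 0.34 ± 0.17 and Tacc3, a spindle protein, at 0.29 ± 0.13 at 12.5 mg/kg. Of 20 genes for E2F, RB and DREAM proteins, 18 were tested, with a median of 0.06 at both 12.5 and 25 mg/kg and 1 at an unadjusted p under 0.05 at each, near or below the shares of all genes. Rbl2, the pocket protein p130, stood at 0.45 ± 0.21 and the E2F partner Tfdp1 at 0.30 ± 0.20 at 25 mg/kg, and at 12.5 mg/kg Lin9 of the MuvB core stood at 0.47 ± 0.17 and E2f8, a repressor E2F, at 0.51 ± 0.36.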

How the data were processed

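Per the file headers, Feature Extraction 10.7.3.1 wrote for each spot the median red and green intensity, its local background and a processed intensity. The deposited table holds log2 ratios whose making is not given in the sources used here; its columns (medians from -0.0345 to -0.0185) correlated at 0.992 to 0.995 with the ratios computed here, so direction and log2 scale match and its centring stays unknown. Intensities were corrected with normexp (offset 50) and loess-normalised within arrays in limma 3.58.1 under R 4.3.3, with control spots given no weight, and 0.623% of spot values, marked as outliers, left out. The design named mean signals; the files hold medians, which were used. Probes stayed in the fit if over 0.5 of their spots rose above liver background on at least 4 arrays (29415 of 55681 probes), and a gene was its brightest kept probe. Probes took gene names from RefSeq accessions, in a table of GRCm38.p6 used for names. Group means were fitted over 19 arrays, 1 per mouse, with Benjamini-Hochberg adjustment over the kept probes; tests were two-sided. Slides 1, 2 and 3 held 5, 8 and 6 arrays. The code of the fit was run on simulated data without slide effects, which cannot show how many true changes it would find on these arrays. All members are accounted for by role; values per array are given for members called in any fit and for the member of smallest F test p in each role, and other lists are named by their calls and their 2 smallest p-values at 12.5 and 25 mg/kg. Members and lists were chosen with earlier results of these data known. The number of arrays limits the precision. One marker list is not reported here.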

Additional observations from a re-analysis of the deposited data

Results flagged for a closer look

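One of the 32 groups of 4 or 5 values tested for a sample far from the others held one, and chance marks about 1 group in 20. In the 25 mg/kg group the Mki67 ratio of replicate 4 was -4.98, with the nearest liver at -5.30, a gap of 0.789 of the group's range.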

How the results depend on the processing

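No paired analysis was possible because the labels give the groups no shared replicate numbers. With slide as a block, 1 gene passed at 25 mg/kg and 1 by the F test instead of 0, both Ccnb1. Chosen after seeing the data, the share of liver spots above background as a covariate moved the median change at 12.5 mg/kg from 0.215 to 0.0472. No other alternative moved a count of calls, or a median by more than the spread between arrays (SD 0.166). That spread is of single-array medians and is not far below the median of 0.215 itself. The lower median at 12.5 mg/kg in the liver channel alone, given above, therefore counts as unmoved. Signs turned only among estimates that passed no test. With the block, Mki67 at 25 mg/kg became -0.0336 and Ccnb1 at 12.5 mg/kg -0.00996. Without background subtraction Mki67 at 25 mg/kg became -0.00483, and with a gene's kept probes averaged -0.0266. With the software's processed signals, Foxm1 became 0.0312 at 25 and 0.0314 at 6.25 mg/kg, Mki67 0.0298 at 6.25 and Ccnb1 -0.0837 at 12.5 mg/kg. In the deposited table Mki67 at 6.25 mg/kg became 0.0188. In the liver channel alone, Mcm3 became 0.11 at 25 and 0.11 at 6.25 mg/kg, Foxm1 0.0557 at 25, Aurka 0.0347 at 6.25 and Ccnb1 -0.16 at 12.5 mg/kg. With the covariate, Foxm1 at 25 mg/kg became 0.0062, Mki67 at 6.25 mg/kg 0.0261 and Ccnb1 at 12.5 mg/kg -0.12. The causes were not tested. Leaving out each array in turn gave 0 calls without the block in all 19 fits of every comparison. The median ranged from -0.13 to 0.02 at 25, from 0.14 to 0.29 at 12.5 and from -0.14 to 0.02 at 6.25 mg/kg. Estimates whose sign turned ranged from -0.15 to 0.15 for Mki67 and -0.0952 to 0.066 for Foxm1 at 25 mg/kg, from -0.17 to 0.12 and -0.132 to 0.0343 at 6.25 mg/kg, and from -0.0748 to 0.127 for Ccnb1 at 12.5 mg/kg. A ratio near the liver background can misstate a change, and 9 of the 32 genes were below background on some array. At 12.5 mg/kg 8 of these 9 had an estimate above 0, as did 20 of the 23 others. Top2a, Cenpe and Kif20a, among the 8, were above background in 1, 2 and 2 of 4 livers there. In controls they were above it in 3, 4 and 5 of 5, so their positive estimates are not to be read as understated rises.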
